A study of Mus musculus with 8 samples.

Results

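The expression of 10 genes of the germline and of meiosis was followed across genotype and day in mouse embryonic stem cells (mESCs) with and without the Polycomb gene *Pcgf5*. They were taken from the deposited tables by their symbols and make up 10 of 24849 listed genes. *Smc1b*, *Cyct* and *Tuba3a* entered because they were among the largest rises in the knockout at day 6, and *Dazl*, *Ddx4*, *Mael*, *Sycp1*, *Sycp3*, *Stk31* and *Slc25a31* were set beside them as genes of the same kind. The genes were therefore selected on the genotype difference of FPKM at day 6, and for these 10 genes the contrasts that use day 6 are described without a test. Only the genotypes at day 0 were tested for them.

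RNA with a polyA tail was sequenced from 8 samples of the mESC line MPI-II, in 4 conditions of 2 biological replicates each. Wild-type cells and *Pcgf5*-/- cells were collected at day 0, when both grew on feeder cells with serum, LIF and 2i, and at day 6 of neural differentiation in N2B27 medium. The *Pcgf5*-/- cells were made with TALENs against exon 2, selected with puromycin and G418, and grown from single picked colonies, so that genotype and clone cannot be told apart. The labels do not say whether the 2 replicates of a genotype come from separate colonies or cultures. Expression is given as FPKM, the fragments counted per length of transcript and relative to the library total, which allows levels to be compared between genes, and the number of fragments behind a value is unknown.

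Germ cells express genes for meiosis, for small-RNA defence against transposons and for sperm or egg function, and most of these genes are silent in somatic cells. Background knowledge places E2F6, the MGA-MAX pair and the PCGF6 form of Polycomb complex 1 at the promoters of many such genes in mESCs, where DNA methylation adds to the silencing. MGA-MAX binds the E-box and E2F6 the E2F motif. PCGF5 belongs to another form of Polycomb complex 1, which places ubiquitin on histone H2A.

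The promoters of 6 of the genes are shown because they hold letters known from germline gene promoters: the 3 genes with the largest differences at day 6, and *Sycp3*, *Ddx4* and *Stk31*, which carry the E-box. Each line gives the 250 bases before the annotated start, 5′ to 3′ along the gene, from RefSeq promoter windows of GRCm38.p6. Capitals mark the E-box CACGTG or the E2F-like letters GCGGGA, read on either strand (TCCCGC on the other strand). In NCBIM37, the build of the files, each sequence was found exactly and at a single place of its chromosome, in the order of the lines: chr15:84962388-84962637 (reverse strand), chr2:76198511-76198760 (reverse strand), chr6:125236100-125236349 (reverse strand), chr10:87922082-87922331 (forward strand), chr13:113442519-113442768 (reverse strand) and chr6:49345288-49345537 (forward strand).
Smc1b: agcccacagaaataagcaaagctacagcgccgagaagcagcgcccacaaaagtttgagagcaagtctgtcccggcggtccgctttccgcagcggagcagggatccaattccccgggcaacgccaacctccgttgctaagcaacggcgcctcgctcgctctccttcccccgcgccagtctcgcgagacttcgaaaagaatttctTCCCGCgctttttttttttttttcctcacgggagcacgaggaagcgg
Cyct: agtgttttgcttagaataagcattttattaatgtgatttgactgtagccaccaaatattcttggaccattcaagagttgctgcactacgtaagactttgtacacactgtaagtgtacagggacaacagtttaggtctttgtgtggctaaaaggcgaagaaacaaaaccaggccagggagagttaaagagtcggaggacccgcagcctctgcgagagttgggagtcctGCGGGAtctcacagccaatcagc
Tuba3a: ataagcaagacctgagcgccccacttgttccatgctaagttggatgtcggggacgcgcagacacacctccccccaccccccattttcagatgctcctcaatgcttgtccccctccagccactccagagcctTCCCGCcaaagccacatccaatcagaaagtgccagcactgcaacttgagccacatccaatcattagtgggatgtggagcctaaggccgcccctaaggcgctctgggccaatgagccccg
Sycp3: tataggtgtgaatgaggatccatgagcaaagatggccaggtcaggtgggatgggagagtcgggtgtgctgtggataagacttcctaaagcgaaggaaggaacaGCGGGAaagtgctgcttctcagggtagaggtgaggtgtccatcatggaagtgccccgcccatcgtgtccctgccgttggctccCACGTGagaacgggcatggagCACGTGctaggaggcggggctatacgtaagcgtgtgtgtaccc
Ddx4: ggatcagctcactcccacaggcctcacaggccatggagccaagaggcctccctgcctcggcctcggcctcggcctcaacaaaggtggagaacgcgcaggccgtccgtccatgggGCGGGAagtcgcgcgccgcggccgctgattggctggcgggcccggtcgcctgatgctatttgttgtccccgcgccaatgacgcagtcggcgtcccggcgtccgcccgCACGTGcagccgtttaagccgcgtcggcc
Stk31: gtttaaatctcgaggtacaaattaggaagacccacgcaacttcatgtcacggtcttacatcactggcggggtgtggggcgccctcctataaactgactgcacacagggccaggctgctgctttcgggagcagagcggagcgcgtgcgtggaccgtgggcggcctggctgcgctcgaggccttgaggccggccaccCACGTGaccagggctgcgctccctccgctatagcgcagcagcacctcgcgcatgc
The windows of *Smc1b*, *Cyct*, *Sycp3* and *Ddx4* end at the base next to the gene as listed, and those of *Tuba3a* and *Stk31* lie 39 and 65 bases away from it.

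Windows of 250 bases before to 50 bases after the start were at hand for all 10 genes. The E-box occurred in 6 of them, *Sycp1*, *Sycp3*, *Ddx4*, *Mael*, *Stk31* and *Slc25a31*, against 8.09% of 27025 genes with a window of the same length. *Sycp3* held it at 2 places, beginning 64 and 43 bases before the start. The letters GCGGGA occurred in 8 of the genes, all but *Dazl* and *Stk31*, against 22.0% of the 27025 genes. *Smc1b*, *Cyct* and *Tuba3a* held GCGGGA beginning 47, 23 and 119 bases before the start and no CACGTG in these windows. No match of one motif overlapped a match of the other in these windows. Over the 11 windows of the 10 genes, since *Stk31* has 2 starts, the median number of CpG dinucleotides was 24, against 7 over 32851 windows. *Cyct* with 8 and *Tuba3a* with 12 had the fewest CpG dinucleotides, and *Ddx4* with 38 the most. Both CACGTG and GCGGGA contain a CpG, so windows richer in CpG may hold them more often. The shares were not compared with windows of like CpG number. These are matches of letters and were not tested against binding or methylation.

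**Figure D1:**
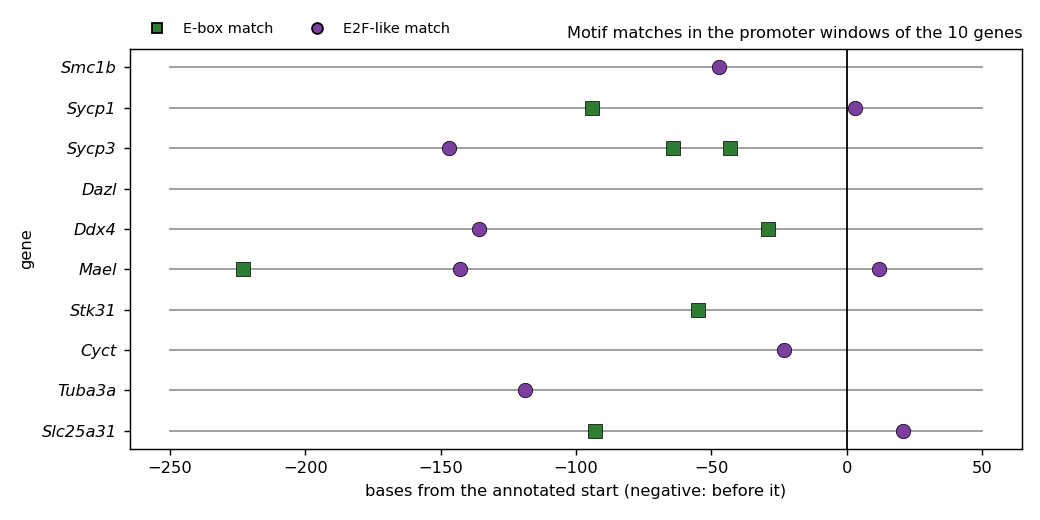
Positions of E-box (green squares) and E2F-like (purple circles) matches from 250 bases before to 50 bases after the annotated start of each of the 10 genes. *Smc1b*, *Cyct* and *Tuba3a* carry 1 E2F-like match each, *Dazl* none of either kind, and *Sycp3* a pair of E-boxes close to the start. For *Stk31* the first of its 2 windows is drawn.

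Before the genes are described, the targeted gene and the state of the samples are given. *Pcgf5* on chromosome 19 showed 5.18 and 3.63 FPKM in wild type at day 0 beside 1.28 and 1.84 in *Pcgf5*-/- cells. By day 6 it showed 9.16 and 5.06 in wild type and 0.669 and 0.457 in *Pcgf5*-/- cells. The *Pcgf5*-/- samples lay below the wild-type samples on both days. The log2 difference was -2.33 at day 6 (limma adjusted p = 0.00421) and -1.07 at day 0, where it did not pass (limma adjusted p = 0.105). Replicates of a condition had a Pearson r of 0.972 to 0.974 over the 13214 tested genes, and genes are not independent replicates. Tested genes were those with a condition whose mean FPKM exceeded 1, and log2 differences are on the log2(FPKM + 1) scale, which shrinks the changes of weakly expressed genes.

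Of the meiotic chromosome genes, *Smc1b* differed most between the genotypes at day 6, while *Sycp3* and *Sycp1* overlapped between them. *Smc1b* (chromosome 15, 84895119 to 84962387) encodes a meiotic subunit of cohesin, the complex that holds sister chromatids together. It had FPKM values of 1.78 and 5.47 in wild type and 3.95 and 4.05 in *Pcgf5*-/- cells at day 0. The values of day 6 were 3.82 and 2.11 in wild type and 27.9 and 17.5 in *Pcgf5*-/- cells. The *Pcgf5*-/- samples of day 6 were the highest of the 8, and the other 6 samples overlapped across genotype and day. Its mean at day 6 was 22.7 ± 7.37 in *Pcgf5*-/- cells and 2.97 ± 1.21 in wild type (SD, n = 2 each), a ratio of 7.66 and a log2 difference of 2.58. Over the 6 days its mean in wild type went to 81.8% of the day 0 value and in *Pcgf5*-/- cells to 568.0%. The wild-type samples of day 0 differed from each other by a factor of 3.07, with Cufflinks intervals of 1.42 to 2.14 and 4.8 to 6.14 that did not overlap.

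*Sycp3* (chromosome 10, 87922332 to 87935981) encodes a protein of the axial elements of the synaptonemal complex, and *Sycp1* (chromosome 3, 102622422 to 102740023) its transverse filaments. *Sycp3* had FPKM values of 3.68 and 1.86 in wild type and 4.69 and 3.2 in *Pcgf5*-/- cells at day 0. By day 6 the values were 5.82 and 1.48 in wild type and 8.91 and 4.15 in *Pcgf5*-/- cells, so the lower *Pcgf5*-/- sample lay under the higher wild-type sample. Its log2 difference at day 6 was 0.80 and came to 0.07 when the second wild-type sample or to 1.53 when the first was left out. *Sycp1* stayed between 0.965 and 2.56 FPKM in all 8 samples, the narrowest range by factor among the 10 genes. The values of day 6 were 1.55 and 0.965 in wild type and 2.56 and 1.08 in *Pcgf5*-/- cells, a log2 difference of 0.28. That difference ran from -0.11 to 0.67 as single samples were left out.

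Of the germ cell RNA regulators, *Dazl* and *Stk31* had their lowest values in wild type at day 6, and *Ddx4* and *Mael* had their highest value in a *Pcgf5*-/- sample of day 6. *Dazl* (chromosome 17, 50418718 to 50432945) encodes an RNA-binding protein that controls translation in germ cells. It had FPKM values of 7.79 and 14.2 in wild type and 21.0 and 21.1 in *Pcgf5*-/- cells at day 0. By day 6 the values were 1.25 and 0.528 in wild type and 5.41 and 4.47 in *Pcgf5*-/- cells. The *Pcgf5*-/- samples were above the wild-type samples on both days, and every sample of day 6 was below every sample of day 0. Its mean at day 6 was 8.08% of that at day 0 in wild type and 23.5% in *Pcgf5*-/- cells, and its *Pcgf5*-/- mean was 1.92 times that of wild type at day 0 and 5.57 times at day 6.

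*Stk31* (chromosome 6, 49345603 to 49419501) encodes a testis protein with a Tudor and a kinase-like domain. It had FPKM values of 3.24 and 5.65 in wild type and 4.33 and 3.19 in *Pcgf5*-/- cells at day 0, where the genotypes overlapped. The values of day 6 were 0.866 and 0.304 in wild type and 3.07 and 1.59 in *Pcgf5*-/- cells, where they did not. The mean went to 13.2% of its day 0 level in wild type and to 62.0% in *Pcgf5*-/- cells.

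*Ddx4* (chromosome 13, 113388541 to 113442518) encodes the mouse Vasa helicase, a standard marker of germ cells. It had FPKM values of 2.93 and 1.61 in wild type and 3.94 and 4.24 in *Pcgf5*-/- cells at day 0. By day 6 the values were 5.08 and 1.44 in wild type and 9.73 and 5.51 in *Pcgf5*-/- cells. The genotypes did not overlap on either day, though at day 6 the gap between 5.51 and 5.08 was smaller than the distance within either genotype. *Mael* (chromosome 1, 168131516 to 168168875), a factor of the piRNA pathway that silences transposons, had 2.25 and 2.15 in wild type and 2.23 and 3.12 in *Pcgf5*-/- cells at day 0. The values of day 6 were 3.87 and 1.4 in wild type and 7.89 and 3.46 in *Pcgf5*-/- cells, and the genotypes overlapped.

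The remaining 3 genes are germ cell forms of proteins that every cell uses, and *Cyct* and *Tuba3a* had the largest log2 differences of the 10 genes at day 6. *Cyct* (chromosome 2, 76191999 to 76198510) encodes the testis form of cytochrome c, which carries electrons in the respiratory chain. It had FPKM values of 4.04 and 5.42 in wild type and 14.2 and 16.4 in *Pcgf5*-/- cells at day 0. By day 6 the values were 7.85 and 3.25 in wild type and 37.4 and 35.5 in *Pcgf5*-/- cells. The genotypes were apart on both days, with ratios of the means of 3.24 at day 0 and 6.57 at day 6. Over the 6 days its mean went to 117.0% in wild type, where the days overlapped, and to 238.0% in *Pcgf5*-/- cells, where they did not. The 4 *Pcgf5*-/- values lay above the upper end of the interval that Cufflinks gave with them.

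*Tuba3a* (chromosome 6, 125228292 to 125236060) encodes an α-tubulin of the testis. It had the highest mean level of the 10 genes, 40.8 FPKM over the 8 samples, with 39.1 and 34.1 in wild type and 64.6 and 79.8 in *Pcgf5*-/- cells at day 0. The values of day 6 were 9.61 and 3.71 in wild type and 52.8 and 42.5 in *Pcgf5*-/- cells. Wild type kept 18.2% of its mean and *Pcgf5*-/- cells 66.0%, and the log2 difference between the genotypes at day 6 was 2.77. Of the stretches of 50 bases in its longest annotated transcript, 32.4% also occur in *Tuba3b*, so reads may have been split between the pair and both values are uncertain. For *Tuba3a* too, 3 of the *Pcgf5*-/- values lay outside their own Cufflinks interval. None of the other 9 genes shared such a stretch with another protein-coding gene.

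*Slc25a31* (chromosome 3, 40512793 to 40530016) encodes the ADP/ATP carrier of the testis and was the weakest of the 10 genes, with a mean of 0.598 FPKM. It had 0.242 and 0.38 in wild type and 0.589 and 0.487 in *Pcgf5*-/- cells at day 0, then 0.511 and 0.181 in wild type and 1.56 and 0.839 in *Pcgf5*-/- cells at day 6. The genotypes did not overlap on either day. It passed the FPKM minimum only through the *Pcgf5*-/- samples of day 6, so some difference on that day was built into its passing.

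**Figure D2:**
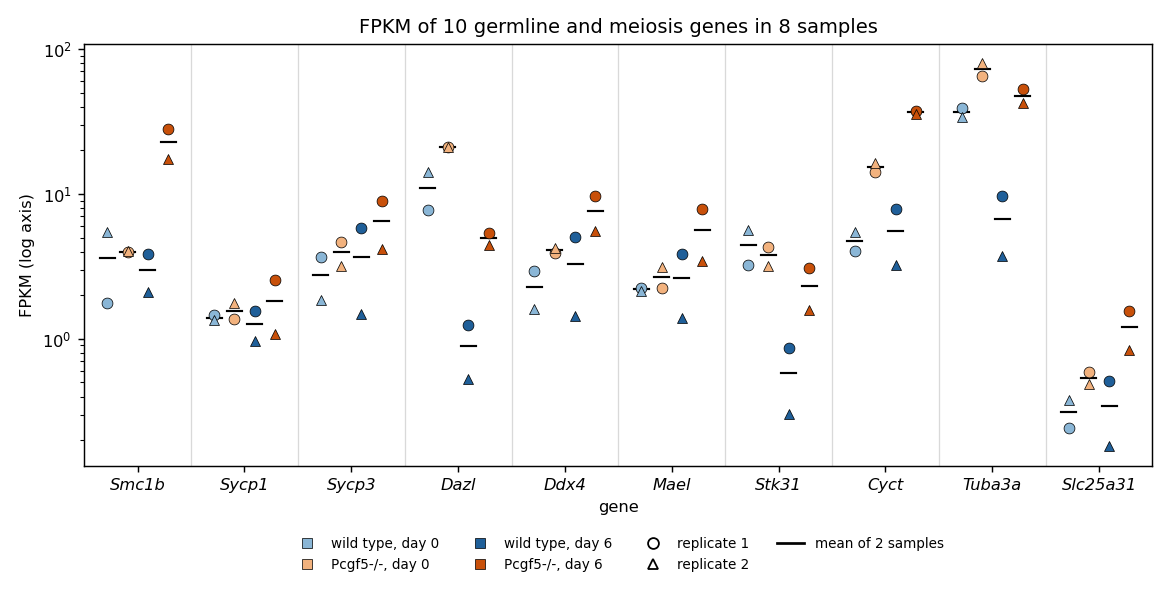
FPKM (log axis) of the 10 genes in each of the 8 samples, with circles for replicate 1, triangles for replicate 2, colours for the 4 conditions and a black bar for the mean of 2 samples. *Smc1b* and *Cyct* stand highest in *Pcgf5*-/- cells at day 6, *Dazl*, *Stk31* and *Tuba3a* lie lowest in wild type at day 6, and at day 6 each circle lies above its triangle.

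At day 0, the contrast that did not choose the genes, 0 of the 10 genes passed an adjusted p of 0.05 with limma, where 0.333% of all 13214 tested genes did. Unadjusted, 3 of the 10 had a p under 0.05, against 2294 of the 13214 genes. *Cyct* came closest, with a log2 difference of 1.52 (standard error 0.31, limma adjusted p = 0.0683). Its difference ran from 1.28 to 1.69 and its adjusted p from 0.0579 to 0.267 over 16 alternatives. *Tuba3a* and *Dazl* had log2 differences of 0.96 and 0.93 (limma adjusted p = 0.188 and 0.147). *Ddx4* followed with 0.67 (limma adjusted p = 0.481), and *Smc1b* stood at 0.24 (limma adjusted p = 0.827). The other 5 genes lay between -0.17 for *Stk31* and 0.42 for *Sycp3*. Both *Pcgf5*-/- samples lay above both wild-type samples for 5 of the 10 genes, *Cyct*, *Tuba3a*, *Dazl*, *Ddx4* and *Slc25a31*, and this held for 34.6% of all tested genes. The median log2 difference at day 0 was 0.33 over the 10 genes and 0.11 over all tested genes. With 2 samples against 2, a permutation test of a single gene cannot give a two-sided p under 0.333.

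At day 6, both *Pcgf5*-/- samples lay above both wild-type samples for 7 of the 10 genes, where this held for 33.4% of all tested genes, and nothing is read from this count since the contrast chose the genes. *Mael*, *Sycp1* and *Sycp3* overlapped. The ratio of the mean FPKM of *Pcgf5*-/- cells to that of wild type ran from 7.66 for *Smc1b* down to 1.45 for *Sycp1*. The median log2 difference was 1.09 over the 10 genes, of which 9 passed the FPKM minimum in another condition than *Pcgf5*-/- at day 6, and 0.02 over all tested genes. It was 1.74 with a pseudocount of 0.1 in place of 1. Set side by side by replicate number, which the labels do not give as pairs, the differences at day 6 ran from 0.08 for *Sycp1* to 3.21 for *Tuba3a*. At day 0 they ran from -0.67 for *Stk31* to 1.59 for *Cyct*. Nothing is read from the signs at day 6, since the contrast chose the genes.

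**Figure D3:**
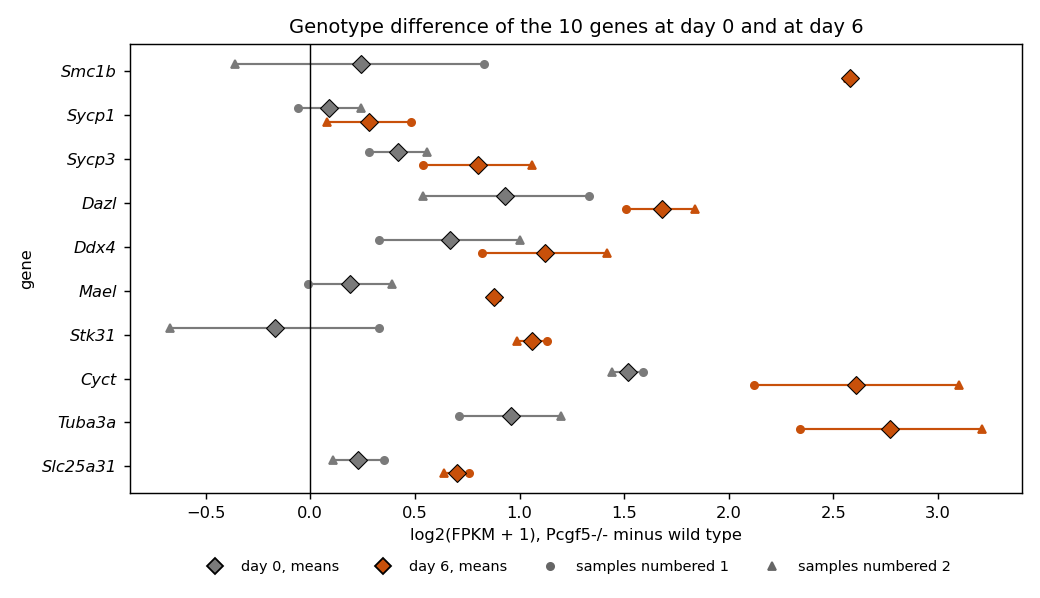
Difference of log2(FPKM + 1) between *Pcgf5*-/- and wild-type cells for each of the 10 genes at day 0 (grey) and day 6 (orange). Diamonds are differences of the means, and circles and triangles the differences between the samples numbered 1 and those numbered 2. *Smc1b* differs by 2.57 or more in both numbers at day 6, and at day 0 its numbers lie on either side of 0.

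Over the 6 days the 10 genes took different courses. *Dazl*, *Tuba3a* and *Stk31* had log2 differences between the days of -2.64, -2.41 and -1.77 in wild type and -1.90, -0.59 and -0.54 in *Pcgf5*-/- cells, and the days did not overlap in either genotype. *Smc1b* and *Cyct* stood at -0.13 and 0.11 in wild type, where the days overlapped, and at 2.21 and 1.2 in *Pcgf5*-/- cells, where they did not. The other 5 genes differed by -0.10 to 0.26 in wild type and by 0.09 to 0.79 in *Pcgf5*-/- cells, and the days overlapped for all of them in wild type. In *Pcgf5*-/- cells the days lay apart for *Ddx4*, *Mael* and *Slc25a31*, with the higher values at day 6, and overlapped for *Sycp1* and *Sycp3*. The median over the 10 genes was -0.04 in wild type and 0.52 in *Pcgf5*-/- cells, beside 0.22 and 0.13 over all tested genes. These contrasts share the samples of day 6 with the contrast that chose the genes.

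The replicates were not alike at day 6. In both genotypes the sample numbered 1 had the higher value for all 10 genes, 20 of 20 pairs, against 8 of 20 at day 0. Among all tested genes, 32.7% were higher in number 1 in both genotypes at day 6. The 16 mESC markers moved the same way in 12 cases, and their summed FPKM was 637.0 and 336.0 in the wild-type samples 1 and 2. The factor between the samples of a condition ran from 1.60 to 3.94 for the 10 genes in wild type at day 6, with 9 of 10 pairs of Cufflinks intervals apart. In *Pcgf5*-/- cells at day 6 it ran from 1.05, for *Cyct*, to 2.38 over all 10 genes. There 6 of 8 pairs of intervals were apart, leaving out *Cyct* and *Tuba3a*, which had values outside their intervals. The level of confidence of these intervals is not given in the sources used here. The part of this replicate difference in the genotype difference was not tested.

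Markers of cell state also differed between the genotypes at day 6. The median log2 difference between the days was -3.20 in wild type and -1.17 in *Pcgf5*-/- cells for the mESC markers. It was -0.04 and 0.52 for the 10 genes, whose courses were mixed. *Dazl*, *Tuba3a* and *Stk31* differed by -2.64, -2.41 and -1.77 in wild type and by -1.90, -0.59 and -0.54 in *Pcgf5*-/- cells. The others lay between -0.13 and 0.26 in wild type and between 0.09 and 2.21 in *Pcgf5*-/- cells. Of 16 mESC markers, 14 were higher in *Pcgf5*-/- cells at day 6 (limma adjusted p under 0.05) and 0 lower, with summed FPKM of 1570.0 to 1700.0 against 336.0 to 637.0 in wild type. Of 16 neural progenitor markers, 14 were lower and 0 higher, with sums of 375.0 to 396.0 against 860.0 to 938.0. Over all tested genes, 9.57% were higher and 7.05% lower. At day 0, 0 of the 32 passed with limma, and 0 and 2 had an unadjusted p under 0.05, against 2294 of all 13214 tested genes. In bulk RNA, more cells of a type and more RNA per cell cannot be told apart. Feeder fibroblast markers summed to 220.0 to 738.0 in *Pcgf5*-/- and 249.0 to 339.0 in wild type at day 0, and to 33.9 to 35.9 and 53.7 to 136.0 at day 6. Of 12 somatic gonad markers, *Fshr*, *Cyp17a1* and *Hsd3b1* were listed at 0 in all samples, and the sums lay between 17.9 and 30.9. Single markers moved under these sums. Of the 7 tested, 4 were higher and 1 lower at day 6 than at day 0 in wild type (limma), where 34.2% and 16.2% of all tested genes were. In *Pcgf5*-/- cells 1 was higher and 1 lower, where 21.9% and 10.4% were. Between the genotypes at day 6, 0 were higher and 1 lower. The part of the mESC and neural states in the levels of the 10 genes was not tested.

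**Figure D4:**
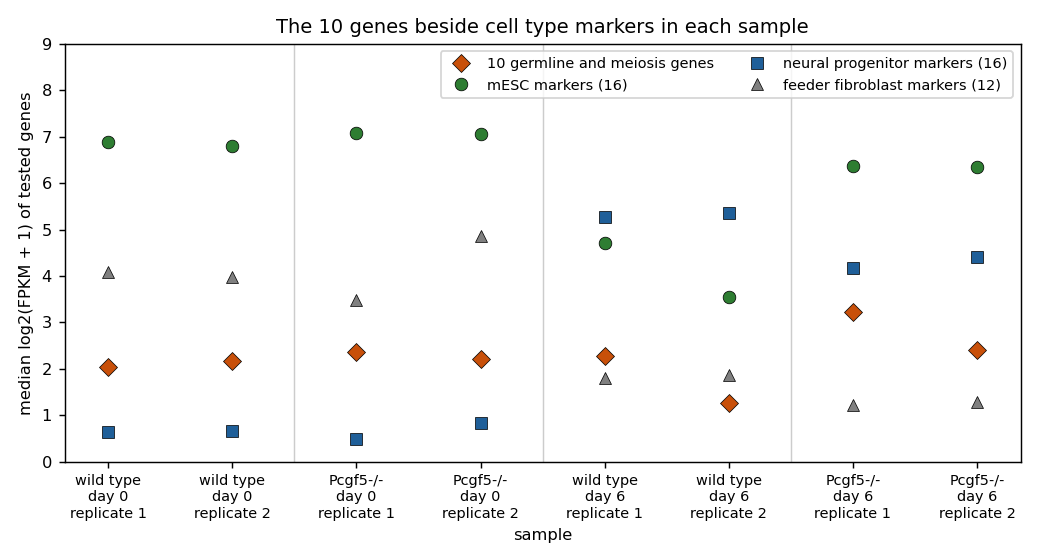
Median log2(FPKM + 1) in each sample over the 10 genes (orange diamonds), 16 mESC markers (green circles), 16 neural progenitor markers (blue squares) and 12 tested feeder fibroblast markers (grey triangles). At day 6 the mESC markers stand at 4.71 and 3.54 in wild type and 6.38 and 6.35 in *Pcgf5*-/- cells, and the 10 genes at 2.28 and 1.27 against 3.23 and 2.41.

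Chromosome-wide shifts touched *Tuba3a* and *Stk31* on chromosome 6. Its 643 tested genes had a median log2 difference between the genotypes of 0.41 at day 0 and 0.37 at day 6, and those of chromosome 11 had 0.48 and 0.38. The other autosomes and chromosome X had medians from 0.04 to 0.12 at day 0 and from -0.06 to 0.03 at day 6. With each chromosome centred on its own median, *Tuba3a* stood at 0.44 at day 0 and 2.46 at day 6, and *Stk31* at -0.68 and 0.74. The other 8 genes lie on chromosomes whose medians were close to that of all genes. Centring moved values there too: *Smc1b*, on chromosome 15, went from 0.24 to 0.01 at day 0 and stayed at 2.58 at day 6.

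The genes whose course over the 8 samples was most like that of the leading 3 were taken by the root mean square difference of centred log2(FPKM + 1). Nearest to *Smc1b* were *Ccdc152* (0.384), *Slc27a2* (0.42) and *Dppa3* (0.422). *Dppa3*, which encodes Stella, a protein of the egg and of early germ cells, had means of 13.9 and 11.6 FPKM at day 0 and 13.3 and 74.8 at day 6 in wild type and *Pcgf5*-/- cells. Nearest to *Cyct* were *Irgm1* (0.446), *Psmb10* (0.471) and *Zswim7* (0.481). Nearest to *Tuba3a* were *Tex19.1* (0.307), *Gdf3* (0.32) and *Pecam1* (0.393). Of these 9 genes, 6 lie on the shifted chromosomes 6 and 11, which hold 13.1% of all tested genes. These are *Dppa3* and *Gdf3* on chromosome 6, and *Irgm1*, *Zswim7*, *Tex19.1* and *Pecam1* on chromosome 11. The part of the chromosome shifts in the likeness was not tested. *Dppa3* and *Gdf3* are also mESC markers. The mean FPKM of *Gdf3* went from 59.2 to 12.2 in wild type and from 73.9 to 70.8 in the knockout. *Tex19.1*, a germ cell gene that restrains transposons, had means of 29.8 and 78.2 FPKM at day 0 and 7.85 and 37.4 at day 6 in wild type and *Pcgf5*-/- cells.

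Other genes of the germline were taken from 6 lists of 118 genes, of which 113 were found in the tables and 59 passed the FPKM minimum. The lists were chosen with earlier results of these data known, so the counts at day 6 are no independent check on the 10 genes. They include *Tuba3b*, which shares sequence with *Tuba3a*. At day 6, 28 of the 59 were higher and 4 lower in *Pcgf5*-/- cells than in wild type (limma adjusted p under 0.05). Of all tested genes, 9.57% were higher and 7.05% lower. In what follows, a gene that rose or fell at day 6 was higher or lower in *Pcgf5*-/- cells than in wild type on that day. Its course over the 6 days can be the reverse, as for *Fkbp6* and *Zbtb16* below. The median log2 difference of the 59 at day 6 was 0.82, against 0.02 over all tested genes. Of the 54 that passed the minimum in another condition than *Pcgf5*-/- at day 6, 26 rose and 4 fell. The count rested on the day 6 samples: 7 rose without the first *Pcgf5*-/- sample, 17 without the second, 10 without the second wild-type sample and 26 without the first. Under the same omissions the number of higher genes among all those tested went from 1265 to 196, 614, 223 and 728. At day 0, 0 of the 59 passed with limma, where 0.333% of all tested genes did. Unadjusted, 12 of the 59 had a limma p under 0.05, against 2294 of all 13214 tested genes. The median was 0.18, beside 0.11 over all tested genes.

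Of 10 tested genes of the meiotic chromosome axis, synapsis and cohesin, partners of *Smc1b*, *Sycp1* and *Sycp3*, 9 were higher in *Pcgf5*-/- cells at day 6. The median log2 difference of the 10 was 1.29. Over the 6 days 5 of them were lower in wild type and 0 higher, where 16.2% of all tested genes were lower (limma). In *Pcgf5*-/- cells 0 of them passed between the days in either direction, where 21.9% of all tested genes were higher and 10.4% lower. The genotype difference at day 6 departed from that at day 0 for 0 of the 10 (limma), where 3.09% of all tested genes did so. *Hormad1*, which encodes an axis protein, had 4.88 and 1.24 FPKM in wild type, beside 21.4 and 11.6 in *Pcgf5*-/- cells, a log2 difference of 2.21 (limma adjusted p = 0.0248). *Hormad2* had 2.4 and 0.698 against 11.2 and 5.97 (1.94, limma adjusted p = 0.0123). *Syce1*, *Syce3* and *Tex12*, of the central element of the synaptonemal complex, had log2 differences of 1.64, 1.57 and 1.39 (limma adjusted p = 0.0263, 0.0140 and 0.0369). *Syce2*, the highest of the list with a mean of 69.8 FPKM, had 78.8 and 95.6 in wild type at day 0 and 41.7 and 33.6 at day 6, where *Pcgf5*-/- cells had 69.5 and 65.5. Without the filter on low values *Hormad1*, *Syce1*, *Tex12* and *Syce2* did not pass (limma adjusted p = 0.0747, 0.0746, 0.0891 and 0.0562). *Hormad2*, on chromosome 11, had a difference of 1.57 with centring by chromosome (limma adjusted p = 0.0294). *Sycp2*, the partner of SYCP3 in the axis, was not tested, with a mean of 0.225 FPKM, and was named after its values were seen.

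Among the genes of recombination and of entry into meiosis, 6 of 13 tested rose and 0 fell at day 6. *Dmc1*, the recombinase of meiosis, had 4.48 and 3.97 FPKM in wild type, beside 16.3 and 13.2 in *Pcgf5*-/- cells, a log2 difference of 1.59 (limma adjusted p = 0.00603). It rose over the 6 days in both genotypes, from 0.983 and 1.8 in wild type and 2.52 and 2.27 in *Pcgf5*-/- cells. *Hsf2bp* and *Rec114* went the other way in wild type, from 27.6 and 35.7 to 5.8 and 1.65 and from 15.4 and 12.9 to 2.35 and 1.48. At day 6 they stood at 21.8 and 16.1 and at 9.32 and 9.19 in *Pcgf5*-/- cells (log2 differences 2.22 and 1.83, limma adjusted p = 0.0106 and 0.00393). *Ccnb1ip1* and *Mcmdc2* rose by 1.64 and 0.70 (limma adjusted p = 0.00661 and 0.0343), and *Psmc3ip*, the highest of the list, by 0.67 (limma adjusted p = 0.0227). *Psmc3ip* lies on chromosome 11, and with each chromosome centred on its median its difference was 0.30 and did not pass (limma adjusted p = 0.228).

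Of 12 tested genes of the piRNA pathway and germ granules, the list nearest to *Mael* and *Ddx4*, 5 rose and 1 fell. *Tex19.1* rose by a log2 difference of 2.19 and *Tdrd12* by 1.98 (limma adjusted p = 0.0117 and 0.0229). *Fkbp6*, *Tdrd5* and *Pld6* rose by 1.58, 1.11 and 1.08 (limma adjusted p = 0.00944, 0.0117 and 0.00981). Over the 6 days the mean of *Fkbp6* went down from 16.8 to 0.722 FPKM in wild type and from 15.2 to 4.14 in *Pcgf5*-/- cells. That of *Tdrd5* went up, from 0.22 to 0.995 and from 0.516 to 3.29. *Tdrkh* was lower by 0.80, with 9.5 and 8.52 FPKM in wild type, beside 4.39 and 5.08 in *Pcgf5*-/- cells (limma adjusted p = 0.0245). At day 0 it had 0.568 and 0.343 in wild type and 0.702 and 0.861 in *Pcgf5*-/- cells. Centred by chromosome, *Pld6* and *Tex19.1* of chromosome 11 had 0.71 and 1.82 (limma adjusted p = 0.039 and 0.0258).

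Of 14 tested RNA-binding and transcription factors of germ cells, 5 rose and 1 fell. *Sohlh2*, a factor of spermatogonia and oocytes, had 3.93 and 0.778 FPKM in wild type, beside 16.7 and 11.8 in *Pcgf5*-/- cells (log2 difference 2.35, limma adjusted p = 0.0115). *Tex14* and *Ddx43* rose by 2.23 and 1.71 (limma adjusted p = 0.00473 and 0.00603), and *Dnd1* by 1.22 (limma adjusted p = 0.0109). *Dmrt1* had 3.81 and 4.36 in wild type and 1.56 and 2.8 in *Pcgf5*-/- cells at day 0, then 2.63 and 2.33 against 11.1 and 16.6 at day 6 (log2 difference at day 6 2.07, limma adjusted p = 0.00455). *Zbtb16*, which marks spermatogonial stem cells and is also used in other tissues, was lower in *Pcgf5*-/- cells at day 6. It had 12.9 and 13.7 in wild type and 4.23 and 3.76 in *Pcgf5*-/- cells (-1.52, limma adjusted p = 0.00393). At day 0 it had 0.122 and 0.149 in wild type and 0.133 and 0.152 in *Pcgf5*-/- cells, so it went up over the days in both.

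The late germ cell genes were mostly silent. Of 25 spermatid and sperm genes, 6 were tested, 1 rose and 1 fell. The riser was *Tuba3b*, the gene that shares sequence with *Tuba3a*, with 0.729 and 0.126 FPKM in wild type, beside 6.57 and 3.76 in *Pcgf5*-/- cells (log2 difference 2.11, limma adjusted p = 0.0122). Centring by chromosome left *Tuba3b* at 1.79 (limma adjusted p = 0.0136). *Cox6b2* fell by 0.40 (limma adjusted p = 0.0443), a call lost in 11 of 16 alternatives, and *Odf2*, the highest of the list with a mean of 70.9 FPKM, had a log2 difference of 0.47 (limma adjusted p = 0.0727). Of 14 oocyte genes, 4 were tested. *Khdc3*, of the maternal complex of the egg, had 2.41 and 1.04 in wild type and 11.6 and 7.08 in *Pcgf5*-/- cells (1.93, limma adjusted p = 0.00856). *Nlrp14* rose by 0.77 and *Npm2* fell by 1.08 (limma adjusted p = 0.0378 and 0.0171).

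**Figure D5:**
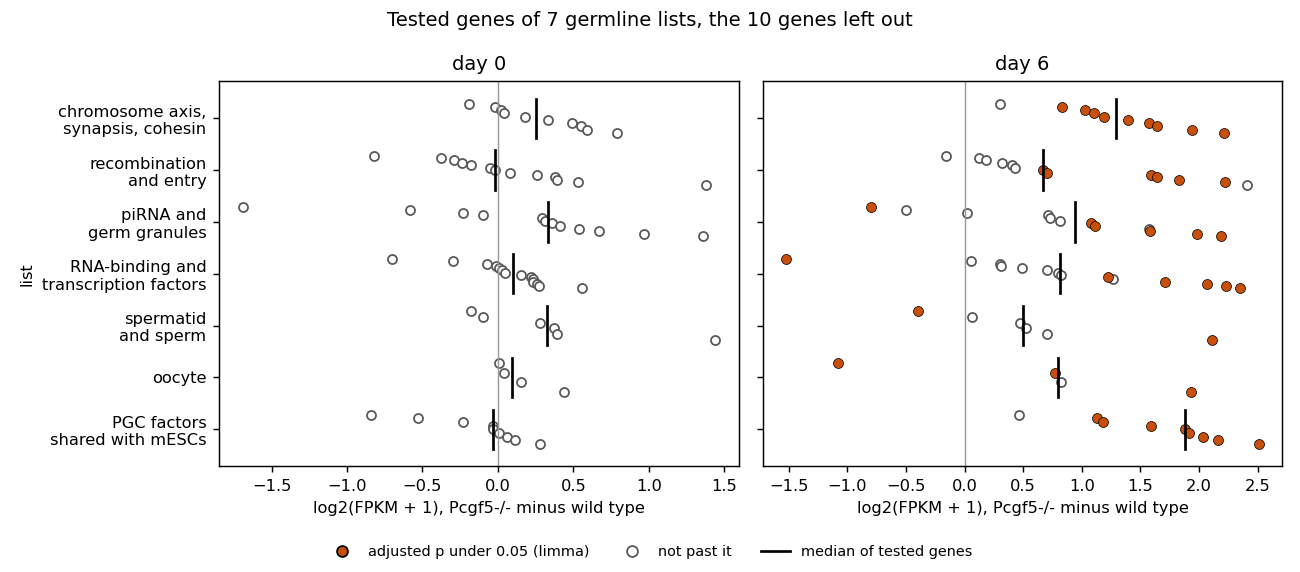
Difference of log2(FPKM + 1) between *Pcgf5*-/- and wild-type cells for the tested genes of 7 germline lists at day 0 (left) and day 6 (right), without the 10 genes, where filled points have a limma adjusted p under 0.05 and bars mark medians. No point is filled at day 0. At day 6 the 6 upper lists hold 28 filled points above 0 and 4 below it, and the lowest list, of factors that mESCs share with primordial germ cells, holds 8 of 9.

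Over the 6 days the 59 genes went both ways in wild type, 12 higher and 25 lower at day 6, where 34.2% of all tested genes were higher and 16.2% lower (limma). In *Pcgf5*-/- cells 15 were higher and 9 lower, where 21.9% and 10.4% were. With quantile normalization, which moved the median of all genes from 0.22 to 0.01 in wild type, the counts were 6 higher and 31 lower in wild type and 11 and 11 in *Pcgf5*-/- cells. The split over all genes moved too, from 4522 higher and 2146 lower to 3250 and 2977 in wild type.

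Factors that specify primordial germ cells but are shared with mESCs were counted apart, since 3 of the 9, *Pou5f1*, *Nanog* and *Dppa3*, are also on the mESC list. At day 6, 8 of 9 rose and 0 fell, with a median log2 difference of 1.88. *Prdm14* and *Ifitm1* rose by 1.91 and 1.88 (limma adjusted p = 0.00932 and 0.0085), beside 2.51, 2.16 and 2.03 for *Dppa3*, *Nanog* and *Pou5f1* (limma adjusted p = 0.0104, 0.00421 and 0.0107). *Nanog* and *Dppa3* lie on chromosome 6 and had 1.84 and 2.19 with centring by chromosome (limma adjusted p = 0.00702 and 0.0144).

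Of 10 genes for somatic counterparts, 1 passed at day 6 with limma, *Tuba1a*, a tubulin of neurons, with 500.0 and 516.0 FPKM in wild type, beside 342.0 and 378.0 in *Pcgf5*-/- cells (log2 difference -0.50, limma adjusted p = 0.0385). This call was lost in 7 of 16 alternatives. The cohesin genes *Smc1a*, *Smc3* and *Rad21* had log2 differences of -0.03, 0.13 and 0.03, and *Tuba1b* and *Tuba1c* of -0.01 and 0.04. The somatic cytochrome c gene *Cycs* had 0.39, or 0.07 with centring by chromosome, *Slc25a4* and *Slc25a5*, ADP/ATP carriers, -0.54 and 0.16, and the helicase gene *Ddx3x* 0.05. These levels lay above those of the germ cell forms: *Cycs* had 46.0 and 61.0 FPKM in *Pcgf5*-/- cells at day 6, where *Cyct* had 37.4 and 35.5, and *Smc1a* had 64.3 and 69.6, where *Smc1b* had 27.9 and 17.5.

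Of 22 genes for the PCGF6 complex and for germline gene repressors, all of them tested, 2 rose and 2 fell at day 6. Over all tested genes 9.57% rose and 7.05% fell. At day 0, 0 of the 22 passed and 5 had an unadjusted p under 0.05 with limma, against 2294 of all 13214 tested genes. *Pcgf6* had 23.5 and 19.6 FPKM in wild type, beside 26.7 and 25.0 in *Pcgf5*-/- cells at day 6 (log2 difference 0.26, limma adjusted p = 0.271). *E2f6* had 7.19 and 7.18 in wild type and 12.3 and 12.2 in *Pcgf5*-/- cells at day 0 (log2 difference 0.70, limma adjusted p = 0.0622), then 34.6 and 33.7 against 30.4 and 28.4 at day 6 (-0.21, limma adjusted p = 0.293). The day 0 difference of *E2f6* passed in 1 of 16 alternatives, a higher FPKM minimum (limma adjusted p = 0.0478), and had an adjusted p of 0.0578 to 0.227 in the others. The 4 genes that passed at day 6, named after their values were seen, were *Rybp* (0.95) and *L3mbtl2* (0.53), which rose, and *Tfdp1* (-0.85) and *Hdac2* (-0.47), which fell. Those of *Rybp* and *L3mbtl2* were lost in 11 of 16 alternatives each, that of *Hdac2* in 12 and that of *Tfdp1* in 2. With centring by chromosome *Rybp*, on chromosome 6, had 0.63 (limma adjusted p = 0.135). *Cbx3*, the highest of the list with a mean of 175.0 FPKM, had a log2 difference of 0.22 (limma adjusted p = 0.367). *Yaf2*, named after its values were seen, had a day 0 log2 difference of 1.09 (limma adjusted p = 0.0614). For 2 of the 22 genes the genotype difference at day 6 departed from that at day 0, where 3.09% of all tested genes did so. These were *Yaf2* by -1.71 and *E2f6* by -0.91 (limma adjusted p = 0.0288 and 0.0426).

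Promoter letters were also counted in the other germline genes. Of the 91 with a window, 20.9% held the E-box and 30.8% the E2F-like letters. Among the tested genes, 7 of 23 with a window that rose at day 6 held CACGTG, and 14 of 23 held GCGGGA. Among the tested genes that did not rise, 5 of 23 held CACGTG and 9 of 23 held GCGGGA. These counts are given as a description.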

How the data were processed

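Per the labels and the study's methods, the authors trimmed the reads, removed duplicates, short reads and reads rich in undetermined bases, aligned to mm9 with TopHat2 2.0.4 and computed FPKM with Cufflinks 2.1.1, as the submitters' processing notes list them. The annotation is not given in the sources used here. The deposited FPKM values are scaled for length and library size, and removing duplicates can lower abundant transcripts. FPKM give no read counts, so the depth is unknown.

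All 8 samples entered a single limma 3.58.1 fit (R 4.3.3) on log2(FPKM + 1) with a mean for each of 4 conditions and a variance trend, over the 13214 genes whose mean FPKM exceeded 1 in some condition. P-values were adjusted by Benjamini-Hochberg over all of them, with 0.05 as threshold, and measure only the spread between 2 samples per condition. The fit was tested on simulated data. The 10 genes and the lists were chosen with earlier results of these data known. Named from each list were genes past 0.05 (at most the 5 largest per direction) and the highest expressed. Alternatives were another pseudocount, minimum, normalization, centring by chromosome, a replicate block, no trend, fewer conditions and leaving out each sample. Tables were handled with Python 3.11.15 and pandas 2.3.3. Coordinates are those of NCBIM37 (mm9), except for promoter windows of GRCm38.p6.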

Additional observations from a re-analysis of the deposited data

Results flagged for a closer look

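For 10 of 68 tested genes of the germline lists and the shared factors, the genotype difference at day 6 departed from that at day 0 by the interaction term of the limma fit over all 13214 genes, 408 of which (3.09%) did so. The 10 genes described first were not put to this test. In the recombination list, *Rec114* had a log2 interaction of 1.44 (limma adjusted p = 0.0464) and *Ccnb1ip1* one of 1.68 (limma adjusted p = 0.042). *Rnf17*, of the piRNA list, differed by 3.26 (limma adjusted p = 0.0435), with FPKM values of 11.3 and 22.6 in wild type and 4.22 and 4.34 in *Pcgf5*-/- cells at day 0, then 3.89 and 1.34 against 13.4 and 5.98 at day 6. The samples of the genotypes lay apart in opposite directions on the 2 days, though neither difference passed by itself (-1.69 and 1.57, limma adjusted p = 0.112 and 0.0524). *Dmrt1* differed by 2.77 (limma adjusted p = 0.0243), with -0.70 at day 0 and 2.07 at day 6. *Tex14* differed by 2.20 (limma adjusted p = 0.0356) and *Zbtb16* by -1.53 (limma adjusted p = 0.0289). Among the factors shared by mESCs and primordial germ cells, *Ifitm1* differed by 2.72, *Nanog* by 1.88, *Ifitm3* by 1.67 and *Tfap2c* by 1.49 (limma adjusted p = 0.0288, 0.0396, 0.0305 and 0.0347).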

How the results depend on the processing

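Among the 10 genes, 0 passed 0.05 at day 0 in the fit reported and in all 16 alternatives, which says nothing of stability. The sign of the day 0 difference turned for *Smc1b* without the first wild-type sample of day 0 (-0.37), for *Sycp1* with quantile normalization (-0.07), with centring by chromosome (-0.00317) and without the second *Pcgf5*-/- sample of day 0 (-0.02), and for *Stk31* without that sample (0.00674) or without the second wild-type sample (0.16). As single samples were left out, the day 0 difference ran from -0.37 to 0.84 for *Smc1b*, from -0.02 to 0.21 for *Sycp1* and from -0.49 to 0.16 for *Stk31*. The median difference of the 10 genes at day 6, 1.09, was 1.74 with a pseudocount of 0.1, and ran from 0.66 to 1.65 as single samples were left out. The medians between the days ran from -0.44 to 0.20 in wild type and from 0.17 to 0.88 in *Pcgf5*-/- cells. Of the other germline genes, leaving out single samples gave 7 to 29 higher and 1 to 3 lower at day 6, and 0 at day 0. It gave 7 to 12 higher and 19 to 25 lower between the days in wild type, and 9 to 15 and 3 to 9 in *Pcgf5*-/- cells. The 12 higher in wild type became 6 with quantile normalization and 6 with a mean FPKM over 5 as the minimum. The cause was not tested, other than that the higher minimum leaves fewer genes. Leaving out a sample leaves a lone sample in its condition, which is assumed to vary like the others.

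Replicate numbers are shared by the labels. The differences between numbers 1 and 2 correlated between the genotypes at 0.39 at day 6 and 0.10 at day 0. Between days they correlated at -0.08 to -0.02. The labels do not give the numbers as pairs and they were not taken as pairs, and a pairing within day 6 was not tested. The replicate block is a single term for both days, which cannot take up a pairing particular to day 6. With a replicate block, 32 of the other germline genes were higher and 4 lower at day 6, 0 passed at day 0, and 0 of the 10 genes passed at day 0. Between the days the block gave 12 higher and 26 lower in wild type and 15 and 10 in *Pcgf5*-/- cells.

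For single named genes, 890 of 1043 recomputed values kept their direction and their side of the threshold, 127 in 31 genes lost it, 5 gained it and 21 turned. Leaving out a sample gave 97 of the losses. The other 30 fell on 13 genes: *Hormad1*, *Syce1*, *Syce2*, *Tex12*, *Mcmdc2*, *Psmc3ip*, *Tdrd12*, *Tdrkh*, *Cox6b2*, *Rybp*, *L3mbtl2*, *Hdac2* and *Tuba1a*. At day 6 the sign turned with centring by chromosome for *Cbx3* (-0.10), *Smc1a* (0.02) and *Tuba1b* (0.000638), and with quantile normalization for *Rad21* (-0.10), *Tuba1c* (-0.06) and *Ddx3x* (-0.02). It also turned without the second wild-type sample for *Rad21* (-0.03), *Tuba1b* (0.01) and *Ddx3x* (-0.17), without the first *Pcgf5*-/- sample for *Smc1a* (0.02), *Rad21* (-0.09), *Tuba1b* (0.12) and *Ddx3x* (-0.18), and without the second for *Tuba1c* (-0.00516) and *Slc25a5* (-0.00792). Over these omissions the differences ran from -0.09 to 0.02 for *Smc1a*, from -0.09 to 0.15 for *Rad21*, from -0.13 to 0.12 for *Tuba1b*, from -0.00516 to 0.09 for *Tuba1c*, from -0.00792 to 0.32 for *Slc25a5* and from -0.18 to 0.29 for *Ddx3x*. *Odf2* and *Slc25a4* passed in 2 of 16 alternatives each.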
